A study of Homo sapiens with 3 samples.

Results

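The genes described here are DEPTOR and 9 genes that build, switch or relay the mechanistic target of rapamycin (mTOR) complexes, namely MTOR, RPTOR, RICTOR, MLST8, AKT1S1, TSC1, TSC2, RHEB and RPS6KB1. They were followed in HT29 cells, an established line of human colon adenocarcinoma. The members were fixed by name, and every non-control probe of the arrays whose RefSeq accession belongs to 1 of these names was taken. This gave 10 of 21606 named genes and 16 of 30000 named probes. The set was selected on the differences from TCP that the same arrays had already shown for DEPTOR, to which its partners were added, so the differences below are descriptions and carry no test.

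HT29 cells were grown on 3 substrates, and 1 single-colour array was hybridized for each, labelled with Cy3. The control cells came from tissue culture polystyrene plates (TCP, labelled 2D). The others came from a chitosan membrane (CS, labelled chitosan) or from a chitosan membrane grafted with hyaluronan (CSHA, labelled chitosan_HA). All 3 arrays used the same cell line, and the time for which the cells of the arrays were cultured is not given in the sources used here. Chitosan is a polysaccharide made from chitin, and hyaluronan is a polysaccharide of the extracellular matrix that binds CD44. With 1 array per substrate there was no replicate check, so a difference between 2 arrays describes those arrays, and a change of substrate cannot be told apart from the variation between cultures, RNA preparations or arrays.

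mTOR is a serine/threonine kinase that couples nutrients and growth factors to protein synthesis, ribosome production and autophagy. It works in 2 complexes. mTORC1 holds RAPTOR and phosphorylates S6 kinase and the 4E-BP proteins, and mTORC2 holds RICTOR and phosphorylates AKT. DEPTOR is a subunit of both complexes that binds the kinase and inhibits it. It is removed by the SCF ubiquitin ligase with βTrCP once it has been phosphorylated, so the amount of its mRNA need not follow the amount of its protein. Upstream, the TSC1 and TSC2 proteins switch off the small GTPase RHEB, which activates mTORC1 at the lysosome.

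A signal is the background-subtracted brightness of a probe as the scanner software gave it, followed by the error the software attached to it. A level is the log2 of that signal minus the 75th percentile of its array, and a difference is the level on 1 substrate minus that on another. Levels of different probes depend on their sequences and were not compared. Each difference stands with 2 measures of precision. One is the combined software error, which does not fall below about 0.20 on the log2 scale for bright probes. The other is the spot SD, from the spread among spots within an array for probes of like brightness that are printed 10 times. It was combined over the 2 arrays compared and divided by the square root of the probe's own number of spots. Neither covers the variation between cultures.

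The 75th percentiles of the signal were 354 (TCP), 423 (CS) and 337 (CSHA), and between 48.6% and 51.1% of 50599 probes were well above background. All 12 colon epithelial markers, EPCAM, CDH1 and the keratins KRT8, KRT18, KRT19 and KRT20 among them, were well above background on CS and CSHA, and 11 were on TCP, where GPA33 was not. On the level scale 10 of the 12 were higher on CSHA than on TCP, 6 of them at least 1.5-fold, and their median level was 4.33 (TCP), 4.48 (CS) and 5.09 (CSHA). The median of their differences from TCP lay at 0.19 for CS and at 0.52 for CSHA, beside 0.04 and 0.13 for all genes. CEACAM5, the carcinoembryonic antigen gene and the highest of them on CSHA, was 2.97-fold higher on CS and 4.47-fold higher on CSHA. On CS 9 were higher and 3 lower than TCP, with KRT18 the lowest at -0.27. On CSHA 2 were lower, with LGALS4 the lowest at -0.20. Their summed signal before scaling, which KRT18 and KRT19 dominate, was 494117, 551259 and 493044 in the order TCP, CS and CSHA. Of 7 fibroblast markers, SPARC and VIM were well above background on TCP and none was on the membranes, with summed signals of 91.7, 47.3 and 34.8, and COL1A1, COL1A2, COL3A1, DCN and LUM were not well above background on any array. Of 5 immune markers on the array, 4, 3 and 4 were well above background on TCP, CS and CSHA. Their summed signal, which CD14 dominates, was 1128, 1748 and 1961, while their median level was -1.57, -3.01 and -3.13. CD14 was 2.05-fold and CD68 2.01-fold higher on CSHA than on TCP, while CD3E differed by -1.75. The 3 endothelial markers were all well above background, at summed signals of 132, 135 and 130. The part of these values in the differences below was not tested.

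DEPTOR, the inhibitory subunit, was the member that stood farthest from TCP on both membranes. Its single probe (NM_022783) gave a signal of 83.0 ± 10.5 on TCP, 173 ± 18.2 on CS and 181 ± 19.1 on CSHA, with the software error as the error and 1 spot per array. The probe was well above background on all 3 arrays and no spot was marked as an outlier. Its levels stood in the order TCP (-2.09), CS (-1.29) and CSHA (-0.90), so TCP was the lowest array and CSHA the highest. The difference from TCP was 0.80 on CS (combined software error 0.24, spot SD 0.24), a fold of 1.74. On CSHA the difference was 1.20 (combined software error 0.24, spot SD 0.25), a fold of 2.29. Both were larger than either measure of precision.

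The step from CS to CSHA was smaller and rested mostly on the scaling. The DEPTOR signals of both membranes, 173 and 181, differed by less than their software errors before scaling, and the level difference of 0.39 (combined software error 0.21, spot SD 0.22) arose as the 75th percentile was lower on CSHA than on CS. Without the shift the signal was 2.08 times that of TCP on CS and 2.18 times on CSHA. The DEPTOR spot is also dim, in group 3 of 10 when genes well above background on any array are ordered from dim to bright. Before background subtraction its median spot signal was 133.5 for TCP, 219 for CS and 217 for CSHA, over a local background of 27, 26 and 25. As a ratio of these unsubtracted signals it was 1.64 times TCP on CS and 1.63 times on CSHA. How far DEPTOR lay above TCP thus depended on the background correction, and its direction did not.

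**Figure D1:**
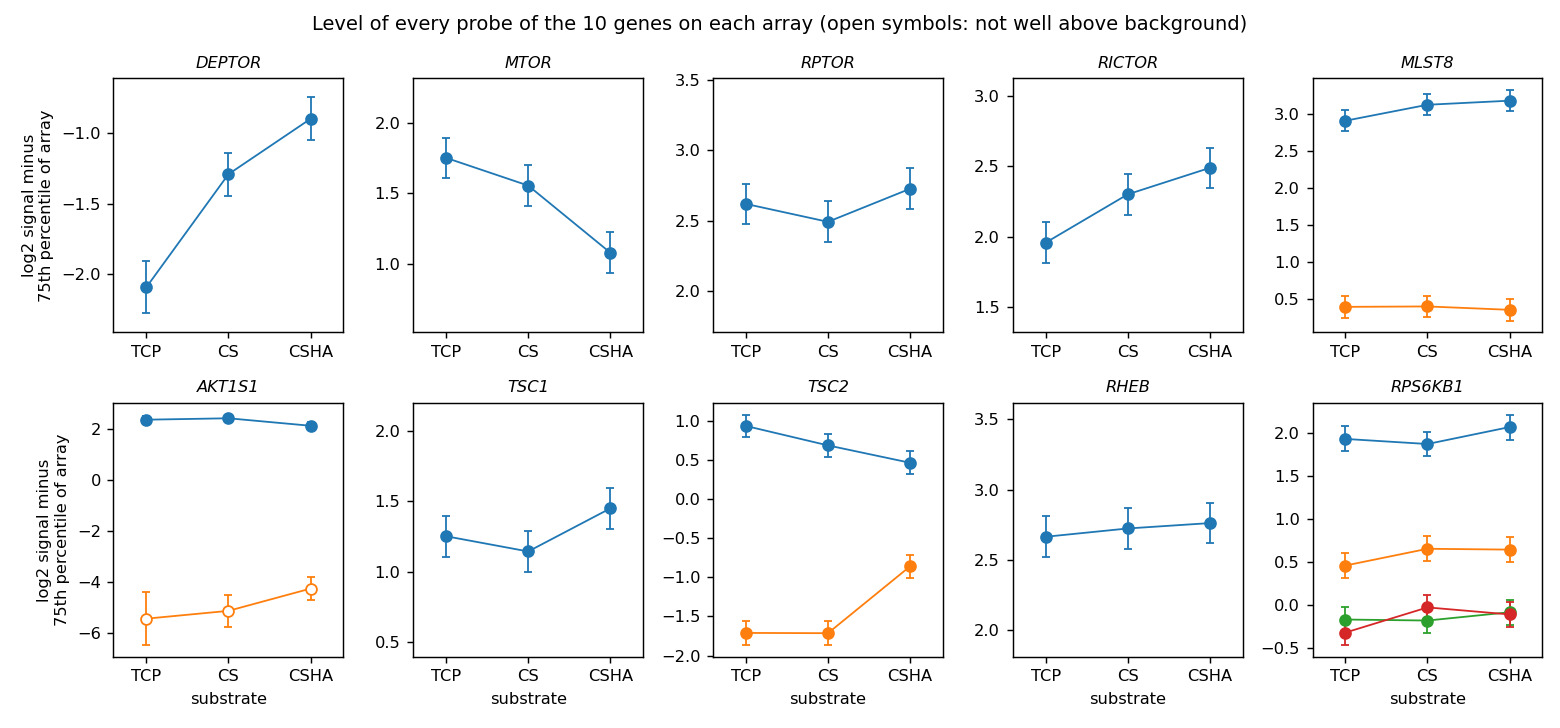
Level of every probe of the 10 genes (vertical axis, log2 signal minus the 75th percentile of the array, each panel with its own scale) on TCP, CS and CSHA (horizontal axis), 1 array each, with the software error of the signal as error bars and 1 colour per probe. The DEPTOR level goes from -2.09 on TCP to -0.90 on CSHA, that of MTOR goes from 1.75 to 1.08, and the second TSC2 probe (orange) lies apart from the first.

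MTOR, the kinase itself, lay on the other side of TCP. The MTOR probe (NM_004958) gave a signal of 1191 ± 119 on TCP, 1241 ± 124 on CS and 712 ± 71.4 on CSHA. Its level was 1.75, 1.55 and 1.08 in the same order, which makes TCP the highest array and CSHA the lowest. The difference of -0.20 on CS exceeded the spot SD of 0.07 and not the combined software error of 0.20, so CS and TCP were not separated by both measures. The difference of -0.67 on CSHA (combined software error 0.20, spot SD 0.09) exceeded both, as did that of -0.48 between CSHA and CS. On CSHA the MTOR signal after scaling was 0.627 times that of TCP.

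MLST8, the small WD-repeat subunit that both complexes share, had 2 probes for the same transcript (NM_022372). The brighter gave signals of 2650, 3672 and 3044 on TCP, CS and CSHA, and differences of 0.22 on CS and 0.27 on CSHA, each just above the combined software error of 0.20. The second gave 467, 560 and 433, and differences of 0.01 and -0.04. The 2 probes thus did not give the same direction on CSHA, and the second showed no difference beyond its spread on either membrane.

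The subunits that mark mTORC1 stayed close to TCP. RPTOR, whose product RAPTOR brings substrates to the kinase, gave signals of 2175, 2377 and 2232 on TCP, CS and CSHA (NM_020761). RPTOR differed from TCP by -0.13 on CS and by 0.11 on CSHA, both within the combined software error of 0.20, and the difference between CSHA and CS was 0.23. AKT1S1 encodes PRAS40, an inhibitor of mTORC1 that AKT phosphorylates. Its brighter probe (NM_032375) gave signals of 1839, 2281 and 1485, with a difference of 0.06 on CS and -0.24 on CSHA, the latter just beyond the combined software error of 0.20. Its second probe (NM_001278160), at signals of 8.15, 12.03 and 17.6, was not well above background on any array and gave no difference.

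RICTOR, the scaffold of mTORC2, was higher on both membranes. Its probe (NM_152756) gave a signal of 1374 ± 138 on TCP, 2081 ± 208 on CS and 1892 ± 189 on CSHA. TCP was the lowest array. The difference was 0.34 on CS (combined software error 0.20, spot SD 0.07), a fold of 1.27. On CSHA the difference was 0.53 (combined software error 0.20, spot SD 0.08), a fold of 1.44. CS and CSHA were not separated beyond the combined software error, with a difference of 0.19 between them. RICTOR and RPTOR, the scaffolds that set the 2 complexes apart, were thus unlike in these arrays, though the difference between them was not tested.

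Among the genes of the switch, TSC1 (NM_000368), which stabilizes its partner TSC2, gave signals of 843, 933 and 921 on TCP, CS and CSHA. TSC1 differed from TCP by -0.11 on CS and by 0.20 on CSHA, neither beyond the combined software error of 0.20, and 0.31 between CSHA and CS. RHEB (NM_005614), the GTPase that activates mTORC1, gave signals of 2245, 2791 and 2287. The RHEB difference of 0.06 on CS and 0.10 on CSHA was within the combined software error, so no difference was seen at this precision. RHEB has pseudogenes of similar sequence, and whether their transcripts add to this probe was not tested.

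TSC2, the GTPase-activating subunit that turns RHEB off, could not be given 1 direction, as its 2 probes disagreed. The probe for NM_000548 gave a signal of 675 ± 67.8 on TCP, 679 ± 68.1 on CS and 464 ± 46.8 on CSHA, so CSHA was the lowest array, and its differences were -0.25 on CS and -0.47 on CSHA. The probe for NM_001077183 gave a signal of 108 ± 11.8 on TCP, 129 ± 13.6 on CS and 186 ± 19.1 on CSHA, with CSHA as the highest array. It differed from TCP by -0.00 on CS and by 0.85 on CSHA (combined software error 0.22, spot SD 0.25). Both probes were well above background on all arrays. On CSHA the difference of the second probe was 1.32 above that of the first on the log2 scale, the widest disagreement among the 3 genes with more than 1 measured probe. Which transcripts each probe measures was not tested.

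RPS6KB1 encodes S6K1, the kinase through which mTORC1 acts on ribosomal protein S6. It had 4 probes, and the brightest (NM_003161) gave signals of 1346, 1542 and 1410 on TCP, CS and CSHA, with differences of -0.06 on CS and 0.14 on CSHA. The other 3 probes (NM_001272043) gave differences between -0.01 and 0.29 on CS and between 0.08 and 0.21 on CSHA. All 4 were thus higher on CSHA than on TCP, and 1 of them, at 0.21, was just beyond its combined software error of 0.21. On CS 2 were higher and 2 lower than TCP.

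**Figure D2:**
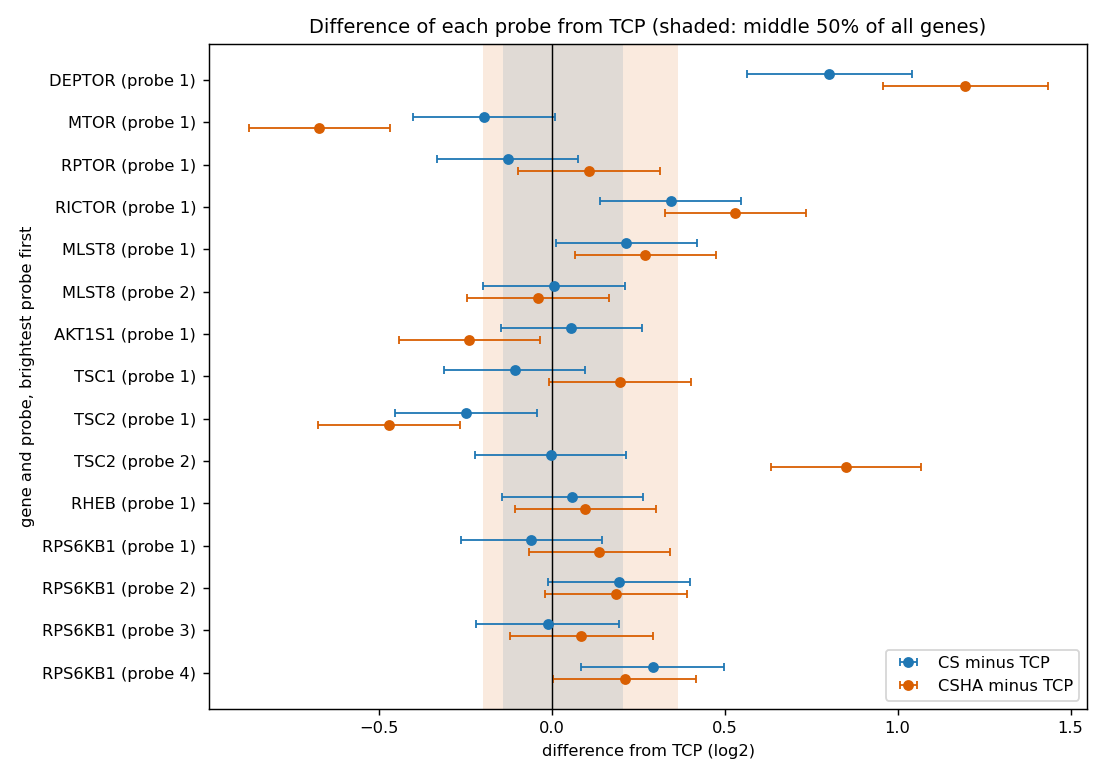
Difference of each measured probe of the 10 genes from TCP (horizontal axis, log2) on CS (blue) and CSHA (orange), with the combined software error as error bars; the shaded bands span the middle 50% of all genes in each comparison. DEPTOR lies at 0.80 and 1.20, above both bands, MTOR on CSHA lies at -0.67, below its band, and the 2 TSC2 probes lie at -0.47 and 0.85 on CSHA.

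Set beside all genes with a value, most members were ordinary. With the brightest probe for each gene, 5 of the 10 members were higher on CS than on TCP, beside 56.8% of 14460 genes, and the median member difference was -0.00 beside 0.04 for all genes. No member reached a 2-fold difference on CS, beside 1.36% of genes higher and 1.92% lower by that size. At 1.5-fold DEPTOR alone of the 10 was higher and none was lower, beside 4.11% and 5.03% of all genes. With another background correction or in the deposited values DEPTOR was below 1.5-fold on CS, at 0.48 and 0.47. On CSHA 7 of the 10 members were higher than TCP, beside 61.7% of 14621 genes, with a median difference of 0.12 beside 0.13. DEPTOR was the member at least 2-fold higher, beside 3.02% of genes, and none was 2-fold lower, beside 3.98%. At 1.5-fold DEPTOR was higher and MTOR lower, beside 11.5% and 11.2%. Without DEPTOR the median of the other 9 members was -0.06 on CS and 0.11 on CSHA. These shares are near those of all genes and say nothing particular of the list.

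Between the 2 membranes, 7 of the 10 members were higher on CSHA than on CS, beside 58.5% of 14594 genes, and the median difference was 0.12 beside 0.07. None reached 1.5-fold, beside 7.68% of genes higher and 7.33% lower, or 2-fold, beside 2.27% and 2.15%. The comparisons with TCP share the TCP array, so a low or high TCP value moves both, and the values of a member on CS and CSHA are not independent of each other.

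For DEPTOR, whose values chose the list, the place among all genes is a description. Its difference exceeded that of 97.8% of genes on CS, with 312 genes higher, and of 98.1% on CSHA, with 274 genes higher. Dim probes spread more widely, so DEPTOR was also set beside the 1502 genes in its own brightness group. Among these, 6.06% were at least 1.5-fold higher on CS and 4.13% were at least 2-fold higher on CSHA. MTOR lay at the percentile 9.01 of all genes on CSHA and 19.9 on CS. RICTOR lay at the percentiles 87.8 on CS and 86.3 on CSHA, and the brighter TSC2 probe at 16.0 and 14.5. RPTOR, AKT1S1, TSC1, RHEB and RPS6KB1 lay between the percentiles 23.1 and 57.8 in both comparisons with TCP, and MLST8 at 76.1 and 65.9.

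**Figure D3:**
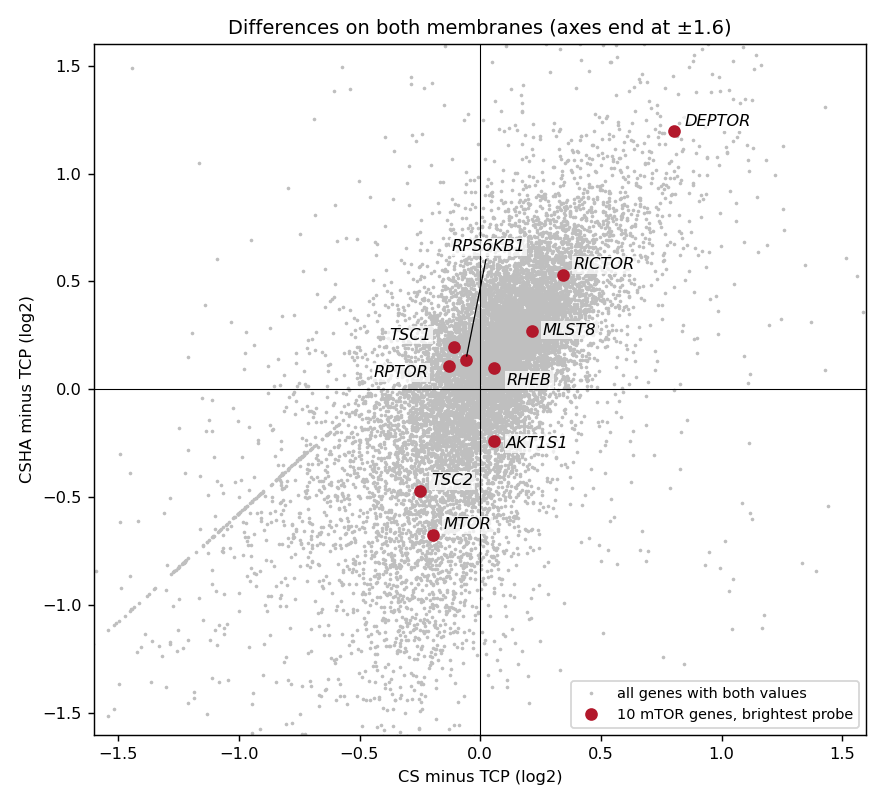
Difference from TCP on CS (horizontal axis, log2) and on CSHA (vertical axis, log2) for all genes with both values (grey) and for the brightest probe of the 10 members (red). DEPTOR (0.80, 1.20) lies toward the upper right of the cloud, MTOR and the brighter TSC2 probe lie toward the lower left and the other members lie between. Both axes are cut, so genes with larger differences are not drawn. The straight row of grey points at the lower left holds genes with a bound on both membranes, and both axes share the TCP array.

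The genes whose 2 differences from TCP lay nearest to those of DEPTOR were TNFRSF11B, DRC12, TMEM37, LMO2 and TNFRSF14, out of 13482 genes well above background on all 3 arrays. Nearness was the Euclidean distance over the pair of log2 differences on CS and CSHA, and thus over 3 arrays only. TNFRSF11B, which encodes the decoy receptor osteoprotegerin, differed by 0.81 and 1.17 (distance 0.024). Its signals of 30.6, 64.2 and 65.7 on TCP, CS and CSHA were close to background. DRC12 differed by 0.76 and 1.19, TMEM37 by 0.82 and 1.23, LMO2, a transcriptional cofactor of blood cell formation, by 0.83 and 1.16, and TNFRSF14, a receptor of the tumour necrosis factor family, by 0.75 and 1.19. In all, 13 genes lay within 0.1 of DEPTOR, and 59 genes, or 0.438%, were at least as high as DEPTOR on both membranes.

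The rest of the pathway was read from 81 other genes in 6 lists written from general knowledge, of which 79 were on the array and 74 had a value. With the brightest probe for each gene, none of the 74 was at least 2-fold higher than TCP on either membrane. On CS 48 were higher and 26 lower, beside 56.8% of all genes higher, with a median difference of 0.04 beside 0.04, and 1 was at least 2-fold lower, beside 1.92%. On CSHA 41 were higher and 33 lower, beside 61.7% of all genes higher, with a median difference of 0.14 beside 0.13, and 2 were at least 2-fold lower, beside 3.98%. At 1.5-fold 7 were higher and 4 lower on CSHA, beside 11.5% and 11.2% of all genes. By their brightest probes, all 74 lay below DEPTOR on both membranes.

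Other probes of the same genes did not always follow. Of 22 genes with several measured probes, 12 had probes on both sides of TCP on CSHA, and for 7 of these, namely AKT2, DEPDC5, PDPK1, PRR5, SEC13, TBC1D7 and TTI1, the probes lay beyond the combined software error in both directions. On CS 9 had probes on both sides, 1 of them, MAPKAP1, beyond that error both ways. AKT2, which encodes an AKT kinase, was the widest case, with differences on CSHA of -0.55, 0.48 and 1.70 from the brightest probe to the dimmest. The last probe gave signals of 150, 168 and 465 on TCP, CS and CSHA, was 3.25-fold higher on CSHA than on TCP and thus lay above DEPTOR. SEC13, a GATOR2 and nuclear pore subunit, gave 0.20 and -1.27 on CSHA, PDPK1, the kinase that activates AKT, 0.32 and -0.58, and TBC1D7, the third subunit of the TSC complex, 0.31 and -0.25. AKT2, SEC13, PDPK1, TBC1D7 and MAPKAP1 were singled out after their values were seen. The values of the lists below are those of the brightest probe unless another is named.

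The other subunits and assembly factors numbered 6, with a median difference of 0.02 on CS and -0.09 on CSHA. The lowest on CS was TTI2, a cochaperone of the TTT complex that folds mTOR and related kinases, at -0.39, and the highest was PRR5, an mTORC2 subunit, at 0.28. On CSHA the brighter PRR5 probe was the lowest at -0.41, while its second probe stood at 0.82, and PRR5L, its paralogue, was the highest at 0.53. TTI1, the partner of TTI2, was singled out after its values were seen. Its brighter probe differed by 0.43 on CSHA and its second by -1.12, so its direction was not settled either.

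The lysosomal branch tells mTORC1 of amino acids. The 12 Rag, Ragulator and folliculin genes with a value had a median difference of 0.11 on CS, where 11 were higher and 1 lower, and of 0.27 on CSHA, where 9 were higher and 3 lower. Over all genes these medians were 0.04 and 0.13, with 56.8% and 61.7% of genes higher, which is the reference for each of the 6 lists. FLCN, the folliculin gene, was the lowest on CS at -0.03, within its combined software error of 0.21. Its second probe stood at 0.44 on CS, beyond its error of 0.24. FNIP1, which encodes the binding partner of folliculin, was the highest on CS at 0.57 and stood at 0.66 on CSHA. LAMTOR4, a Ragulator subunit that holds the Rag GTPases at the lysosome, gave signals of 20597, 29549 and 36775 on TCP, CS and CSHA. LAMTOR4 differed by 0.27 on CS and by 0.91 on CSHA, the highest of the 74 genes there. RRAGB, a Rag GTPase, was the lowest on CSHA at -0.47, at signals of 52.7, 64.5 and 36.2. Of the 6 lists it had the highest median on both membranes.

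The GATOR complexes, KICSTOR and the amino acid sensors, which restrain or release the Rag GTPases, gave 16 genes with a value. The median of their differences was 0.05 on CS, with 11 higher and 5 lower, and 0.10 on CSHA, with 8 higher and 8 lower. NPRL3, a GATOR1 subunit, was the lowest on CS at -0.36, and SESN1, the leucine-binding Sestrin 1, the highest at 0.62. SAMTOR, the sensor of S-adenosylmethionine, was the highest on CSHA at 0.87. DEPDC5, another GATOR1 subunit, was the lowest at -1.06, with signals of 213, 221 and 97.6 on TCP, CS and CSHA. Another DEPDC5 probe stood at 0.31 on CSHA, and the third, no longer well above background there, was at least 2.78-fold lower than on TCP. The direction of DEPDC5 on CSHA was thus not settled, and the second SEC13 probe, at -1.27, lay below the brightest probe of DEPDC5.

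Of the growth factor and energy genes upstream of TSC, 18 had a value. Their median lay at 0.03 for CS and at 0.19 for CSHA, with 11 higher and 7 lower on each membrane. PRKAG1, the γ subunit of the energy sensor AMPK, gave signals of 890 ± 89.2, 932 ± 93.4 and 399 ± 40.3 on TCP, CS and CSHA. PRKAG1 thus differed by -0.19 on CS and by -1.09 on CSHA, the lowest array. DDIT4L, a paralogue of the mTORC1 inhibitor DDIT4, gave signals of 49.7, 4.86 and 38.5 and was not well above background on CS. Its bound there was at least 2.81-fold lower than on TCP, a difference of -1.49. The combined software error of 1.46 was almost as large, and the spot SD was 0.75. PRKAA1, the catalytic α subunit of AMPK, was the highest on CS at 0.34, and IRS2, an insulin receptor substrate, the highest on CSHA at 0.66.

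The effectors below mTORC1 and mTORC2 gave 16 genes with a value, with 9 higher and 7 lower on each membrane and medians of 0.03 on CS and 0.08 on CSHA. SGK1, a kinase that mTORC2 activates, was the lowest on CS at -0.59, and RB1CC1, a scaffold of the ULK1 complex that starts autophagy, the highest at 0.42. On CSHA ATG13, another subunit of the ULK1 complex, was the lowest at -0.31, with a second probe at 0.05. LPIN1, which encodes the lipid phosphatase lipin 1 that mTORC1 keeps out of the nucleus, was the highest at 0.89. Its signals were 1003 on TCP, 1442 on CS and 1773 on CSHA.

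DEPTOR protein is turned over by the SCF ligase and spared by a deubiquitinase, and 6 genes of this group had a value. Their median lay at 0.02 for CS and at -0.11 for CSHA. FBXW11, which encodes a βTrCP protein that recognizes DEPTOR, was the lowest on CS at -0.11 and the highest on CSHA at 0.45. SKP1, the adaptor of the ligase, was the highest on CS at 0.17, with a second probe at 0.03. On CS the values of FBXW11 and SKP1 were within the combined software error of 0.20. OTUB1, the deubiquitinase that stabilizes DEPTOR, gave signals of 2038, 2373 and 1295 and was the lowest on CSHA at -0.58, and it stood at -0.04 on CS. The arrays measured mRNA, and DEPTOR protein was not measured here.

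**Figure D4:**
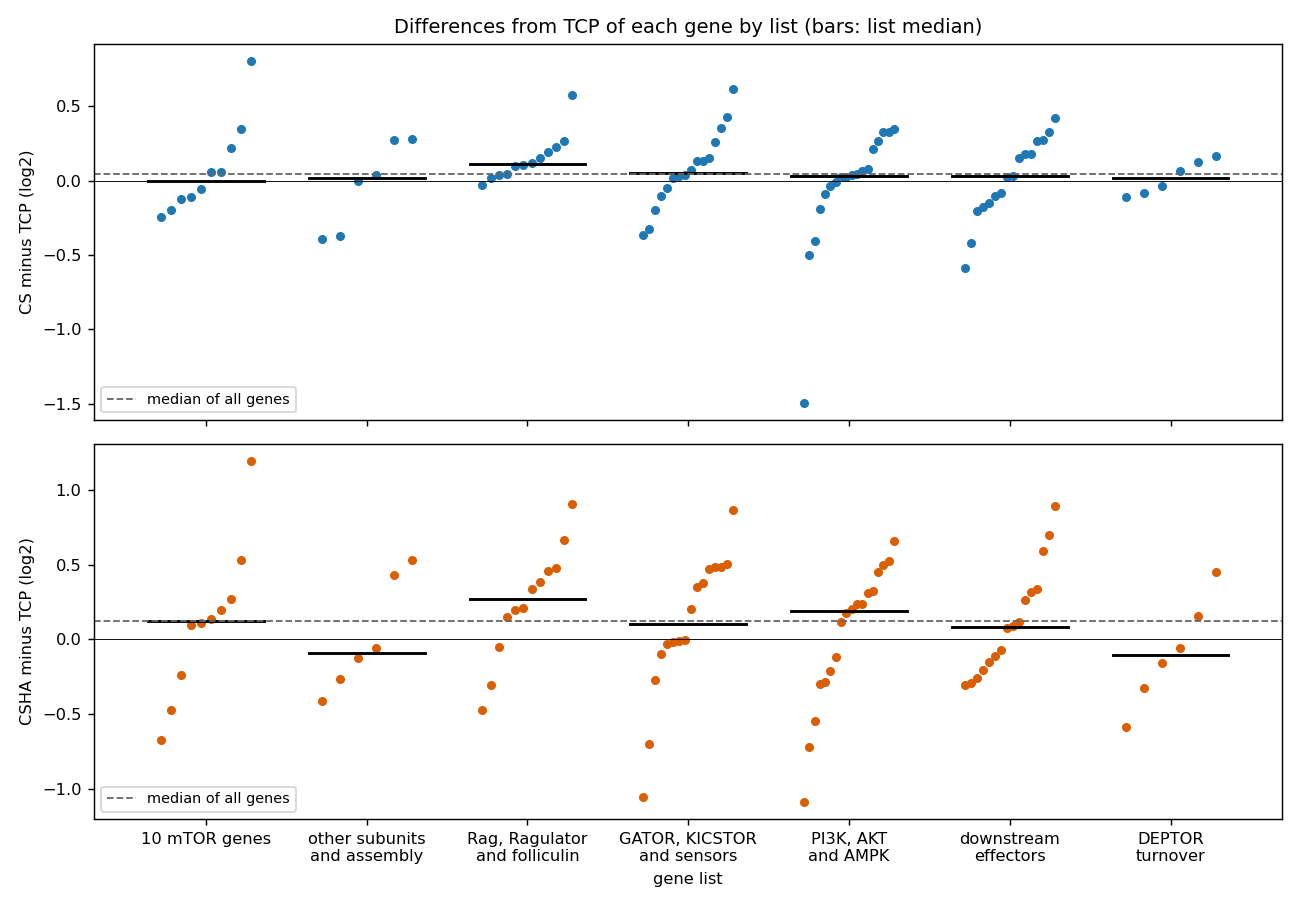
Difference from TCP of each gene (points; vertical axis, log2) on CS (upper panel) and CSHA (lower panel) for the 10 members and the 6 other lists of the pathway (horizontal axis), with the list median as a black bar and the median of all genes as a dashed line. Each gene is drawn by its brightest probe, and the DEPTOR point is the highest of all at 0.80 and 1.20, the list medians lie within -0.11 and 0.27, and the lowest point of the upper panel, DDIT4L, is a bound.

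**Figure D5:**
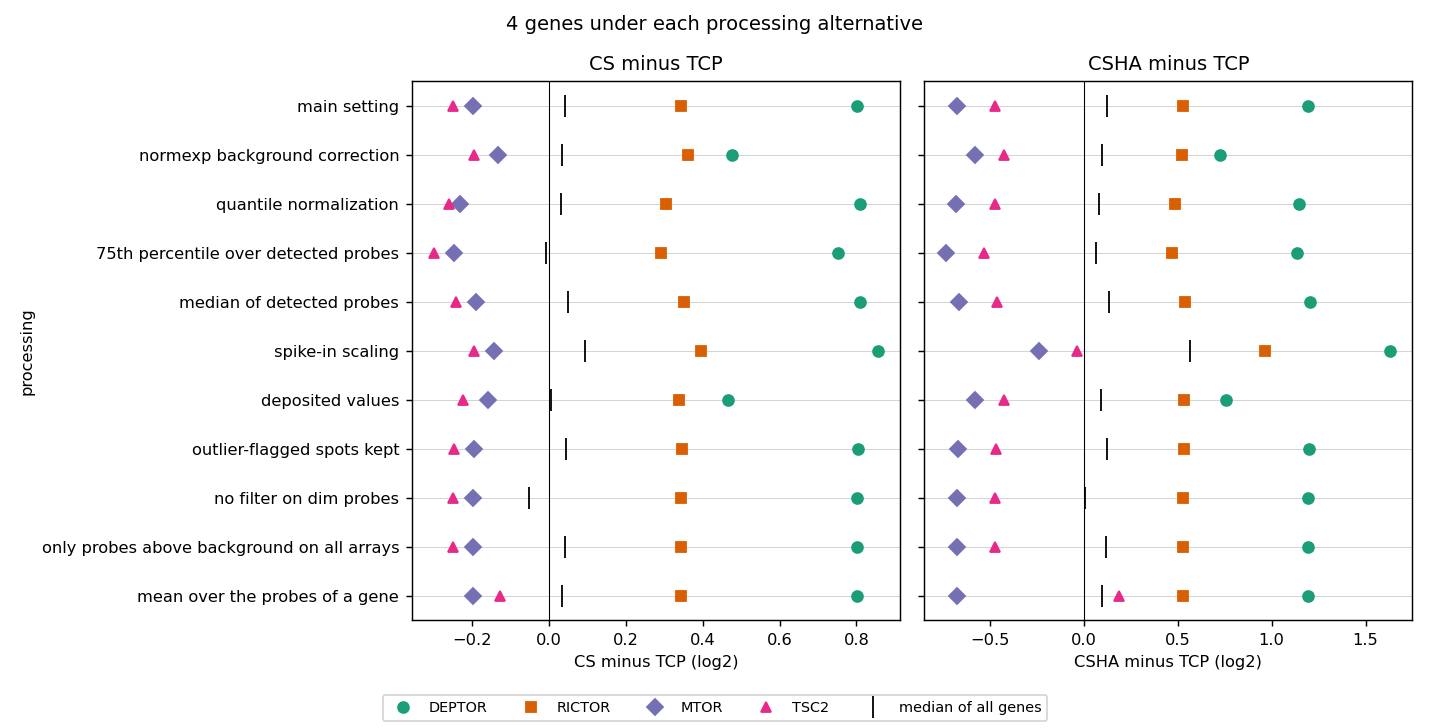
Difference from TCP (horizontal axis, log2) on CS (left) and CSHA (right) of DEPTOR, RICTOR, MTOR and TSC2, the 4 members farthest from TCP on CSHA, and the median of all genes (black tick), under the main processing and 10 alternatives (vertical axis). DEPTOR stays above 0 in each, between 0.47 and 0.86 on CS and between 0.73 and 1.63 on CSHA, while TSC2 goes to 0.19 on CSHA when its 2 probes are averaged.

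Across the 10 alternative ways of processing, the DEPTOR difference stayed between 0.47 and 0.86 on CS and between 0.73 and 1.63 on CSHA, and DEPTOR was below 1.5-fold on CS and below 2-fold on CSHA with another background correction and in the deposited values. MTOR stayed between -0.25 and -0.13 on CS and between -0.73 and -0.24 on CSHA. RICTOR stayed between 0.29 and 0.40 on CS and between 0.47 and 0.97 on CSHA. The directions of RPTOR, MLST8, TSC1 and RHEB against TCP also held in all 10. For RPTOR, TSC1 and RHEB these differences were within the combined software error, and the second MLST8 probe stood at -0.04 on CSHA. Keeping flagged spots, changing the filter or averaging probes could hardly move members with 1 probe, DEPTOR, MTOR and RICTOR among them. The direction of AKT1S1 on CSHA turned to 0.20 with scaling to spike-in controls, under which the median of all genes on CSHA moved from 0.13 to 0.57, that of TSC2 on CSHA turned to 0.19 with the mean over probes, and that of RPS6KB1 on CS, within its error to begin with, turned under 3 alternatives.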

How the data were processed

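RNA of HT29 cells from TCP, CS and CSHA was measured on 1 single-colour Agilent array each. For every spot the authors deposited the scanner software's intensity, both raw and after background subtraction, with an error and flags (Feature Extraction 10.7.3.1, per the file headers, while the methods name another version). They also deposited log2 values. Differences between arrays of these equal those of the log2 median spot signal, without background subtraction, plus 1 constant per pair of arrays, to within 9.84998e-08 on all 62976 spots. Each spot is also shifted by a centre of its own, which is neither the mean nor the median of its 3 values and stays unknown (column medians 0.013, -0.129 and 0.0427 for TCP, CS and CSHA); it cancels in differences, and the table served as an alternative. The submitters' processing notes name limma. No column lacked a sample (0).

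As in the study's methods, signals were raised to a floor of 1 and their log2 values shifted by the 75th percentile of the array, taken over non-control probes after outlier-flagged spots were left out and spots of a probe averaged. Accessions were matched to symbols in a RefSeq table (GRCh38.p14, for names only): 30000 of 50599 probes matched, the other 20599 were not used, and 6222 of 21606 genes had several probes. The brightest probe stood for a gene. A gene was compared where at least 1 of the 2 arrays was well above background, with a bound where the other was not, against the dim probe's own signal or, where higher, the smallest one called well above background there (24.1, 21.1 and 22.6 on TCP, CS and CSHA). No spot was saturated. The number of arrays limits the precision, and with 1 array per substrate no test was made.

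The members and lists were chosen with earlier results of these data known. Named were all members with every probe, in each pathway list the genes at either end on CS and on CSHA, any pathway gene at least 2-fold from TCP by its brightest probe, and the 5 genes nearest to DEPTOR. Marker genes were named outside this rule. Of the pathway and marker genes, CSNK1A1, EIF4EBP3 and LYZ were not matched. The 10 alternatives were normexp background correction (offset 50), quantile normalization, the 75th percentile or the median of detected probes, 7 spike-in probes, the deposited values, outlier-flagged spots kept, no filter or a stricter filter on dim probes, and the mean over probes; thresholds of 1.5-fold and 3-fold were also tried. On simulated data, 200 genes of 14700 were changed by 1.5 on the log2 scale in each comparison with TCP. For CS 200 were recovered and for CSHA 199, and 30 and 31 unchanged genes were called. This size is above that of every member, so recovery at the members' sizes was not tested. The counts are not split by brightness, so they do not vouch for probes as dim as that of DEPTOR. With 1 array per substrate they also cannot cover the variation between cultures or RNA preparations. Python 3.11.15 (pandas 2.3.3, numpy 2.4.6, matplotlib 3.10.9) and, for normexp, limma 3.58.1 under R 4.3.3 were used.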

Additional observations from a re-analysis of the deposited data

Results flagged for a closer look

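RPTOR and TSC1 lay on opposite sides of TCP on the 2 membranes. RPTOR differed from TCP by -0.127 on CS and by 0.107 on CSHA. TSC1 differed by -0.108 on CS and by 0.197 on CSHA. Each of these values is within the combined software error of 0.20. Between CSHA and CS the difference was 0.23 for RPTOR and 0.31 for TSC1, both beyond that error and beyond the spot SD. With 1 array per substrate, whether the membranes differ in these genes was not tested.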

How the results depend on the processing

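Of 300 member differences under the 10 alternatives, 36 moved by more than the spot SD, 20 of them with spike-in scaling, and 10 changed sign, 5 of which had been beyond the spot SD. These 5 were AKT1S1 with spike-in scaling (0.20 for CSHA against TCP, 0.09 for CSHA against CS), TSC2 against CS with spike-in scaling (0.16) and TSC2 with the mean over probes (0.19 against TCP, 0.32 against CS). Keeping outlier-flagged spots or changing the filter on dim probes could hardly move a member. No member spot was flagged, and each member's brightest probe was well above background on all arrays. The mean over probes could not move the 6 members with 1 probe. The 300 values are thus not 300 separate checks. The DEPTOR difference was 0.48 on CS and 0.73 on CSHA with normexp, 0.47 and 0.76 in the deposited values, and 1.63 on CSHA and 0.78 between CSHA and CS with spike-in scaling. By construction, the first 2 shrink ratios of dim probes, one through its offset and the other as it subtracts no background. DEPTOR was the 1 member at 1.5-fold on CS, a size it did not reach with normexp or in the deposited values. MTOR was the 1 member 1.5-fold lower on CSHA in the main setting. On CSHA 0 members were 2-fold higher with normexp or in the deposited values, and 0 were at 3-fold. With spike-in scaling MTOR stood at -0.24 on CSHA against TCP, short of 1.5-fold. RICTOR (0.97), MLST8 (0.71) and TSC1 (0.63) then passed 1.5-fold higher there, while the median of all genes also rose. No paired analysis was possible because each substrate had 1 array.

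Spike-in scaling moved the median of all genes to 0.57 for CSHA against TCP and 0.46 for CSHA against CS. It gave medians for CSHA against TCP of 0.56 for the members, 0.34 for the other subunits, 0.71 for the Rag list, 0.54 for the GATOR list, 0.63 for the upstream list, 0.52 for the effectors and 0.33 for DEPTOR turnover, and for CSHA against CS of 0.50, 0.64, 0.48, 0.41, 0.55, 0.58 and 0.18 in that order. The median of the other subunits for CSHA against CS was 0.15 with the mean over probes. No list median changed by more than the spread under any other alternative.

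The number of all genes at least 2-fold higher and lower was 197 and 278 on CS, 442 and 582 on CSHA, and 332 and 314 for CSHA against CS. In the same order it was 57, 104, 155, 292, 105 and 148 with normexp, 34, 40, 123, 277, 47 and 116 in the deposited values, and 634, 1152, 1129, 1191, 1111 and 676 with no filter, where 14212 genes were higher on CSHA than on CS. It was 84 and 80 on CS, 263 higher on CSHA, and 108 and 203 for CSHA against CS with probes above background on all arrays. These counts rest on unlike numbers of genes. The main setting compared 14460, 14621 and 14594 genes for CS, CSHA and CSHA against CS. With no filter all 21606 named genes were compared, also those near background, and the stricter filter left 13482. Spike-in scaling gave 1809 and 176 on CSHA and 1009 and 116 for CSHA against CS. At 1.5-fold it was 595, 728, 1685, 1637, 1121 and 1070, and at 3-fold 75, 123, 149, 128, 133 and 79. DEPTOR, TNFRSF11B, LMO2 and the second TSC2 probe are dim, so their differences are less precise than those of bright probes. Some pathway probes had larger combined software errors than DEPTOR, at 0.24 on both membranes. These errors against TCP were 1.46 for DDIT4L on CS, and 0.42 for the third DEPDC5 probe and 0.32 for RRAGB on CSHA.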
